A study of Mus musculus with 6 samples.

Results

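The cytochrome P450 genes of families 1 to 3 were examined in livers of P-407 treated mice. P-407 is a poloxamer, a block copolymer surfactant, and repeated doses of it keep blood lipids high. Members were chosen by name alone: every array feature annotated to a mouse gene whose symbol begins with Cyp1, Cyp2 or Cyp3 followed by a letter. On the oligonucleotide array 47 of 22575 features met this rule. They named 44 genes, and all 44 had a value on all 3 arrays, among 16871 genes tested. On the cDNA array 23 of 13482 features met it. Of these, 5 were annotated to several P450 genes at once and could not be given to any, and the other 18 named 18 genes, of which 14 had a value on all 3 arrays, among 5011 genes tested. Both array types together covered 48 genes of the families, and 10 genes were measured on both.

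The treated group was 12 female C57BL/6 mice, 7 weeks old at the start and fed a low-fat chow, that received 0.5 g/kg P-407 intraperitoneally every 3 days, with livers taken at day 96. The control group was 4 mice of the same strain, sex, age and diet that received saline on the same schedule. Treated RNA was combined into 3 pools and control RNA into 1 pool. Each treated pool was labelled with Cy5 and hybridised against the control pool in Cy3, once on an oligonucleotide array and once on a cDNA array, with no exchange of dyes. The sources used here do not say which mice entered which pool.

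All values are log2 ratios of the treated pool over the control pool, so a negative value means less RNA in the treated livers. The log base was inferred from the range of the values, because a log10 ratio could not exceed 4.82 on a 16-bit scanner and the tables go beyond it. A natural log was not settled, and folds would then be larger. The tables used hold no intensities, so the ratios carry no level. They cannot show how abundant a P450 was or check the tissue label by the presence of its markers. The number of arrays limits the precision. The oligonucleotide arrays of different pools correlated at 0.79, 0.78 and 0.70 over all features. On the cDNA arrays pools 1 and 2 correlated at 0.66, while pool 3 correlated at 0.27 with pool 1 and at 0.25 with pool 2 and so stood apart.

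Cytochrome P450 enzymes are haem proteins of the endoplasmic reticulum that insert an oxygen atom into lipophilic substrates, with electrons from NADPH-cytochrome P450 reductase and cytochrome b5. Families 1 to 3 are the drug-metabolising families of the liver, and they also hydroxylate steroids, oxidise arachidonic acid and activate vitamin D. Their transcription is driven by liver-enriched factors and by receptors that sense foreign compounds, namely AHR for Cyp1 genes, CAR for Cyp2b genes and PXR for Cyp3a genes. In mice many of them lie in clusters of close relatives, and several differ between the sexes under the control of growth hormone.

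On the oligonucleotide arrays, centred on their medians, 22 of the 44 P450 genes of families 1 to 3 had less RNA in the P-407 treated livers than in the control livers, mostly by small amounts. The steroid hydroxylase genes Cyp2a4 and Cyp3a16 had the lowest ratios, near a 2-fold decrease, and the vitamin D hydroxylase gene Cyp2r1 and 4 of 5 Cyp2j genes were lower by less. Cyp2c23, Cyp2d40 and Cyp2g1 were the 3 members that rose. Cyp3a11, the main PXR target of the family, stayed near 0 in all 3 pools of these arrays. On the cDNA arrays its mean was 0.47, not called.

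In all, 22 of 44 members fell and 3 rose by limma, with a Benjamini-Hochberg adjusted p under 0.05 over all genes. The same threshold called 43.4% of all genes tested, 21.4% lower and 22.0% higher, so a call by itself is common on these arrays, and the share of members called lower was 50%. The median ratio of the 44 members was -0.18, with medians of -0.18, -0.19 and -0.09 in pools 1, 2 and 3, against a median of 0.00 over all genes. Below 0 lay 32 members, 27 of them on all 3 arrays (61.4%, against 34.1% of all genes), and above 0 lay 12. At an unadjusted p under 0.05 there were 29 of 44 members and 8868 of 16871 genes. With each gene tested on its own variance alone, 0 members were called in either direction, against 16 lower and 24 higher among all genes.

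Most of these changes were small. When a size of at least 1.5-fold was also required, 3.35% of all genes passed, 1.23% lower and 2.12% higher, and of the members only Cyp2a4 and Cyp3a16 passed, both lower, with 0 higher. The other 23 called members lay between -0.52 and 0.46. The 19 members not called lay between -0.23 and 0.14. For comparison, the central 95% of all genes lay between -0.48 and 0.56, and the median SD over pools was 0.08 both for the members and for all genes. On the cDNA arrays the central 95% lay between -1.39 and 1.66, so sizes of change cannot be compared directly between the array types.

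The split between lower and higher depends on the zero point. Ratios were centred on the median of each array, and the hepatocyte markers lay below that median in every pool, at -0.27, -0.23 and -0.30 in pools 1, 2 and 3 (20 markers). In an alternative chosen after seeing the data, arrays were centred on those markers instead. Then 3 members were called lower and 19 higher, against 627 lower and 12500 higher among all genes. Cyp2a4, Cyp3a16 and Cyp2r1 were the 3 that remained lower. Of the 20 markers, Alb, Ahsg and Fgb carried 1 shared ratio on each array but were counted as 3. Centring with this ratio counted once was not run, and the marker medians could then differ. Of 18 markers of macrophages and Kupffer cells 13 rose and 4 fell in the same livers (median 1.01), and the part of a changed cell makeup in the P450 ratios was not tested. In whole-liver RNA, fewer hepatocytes and less P450 RNA per hepatocyte cannot be told apart.

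**Figure D1:**
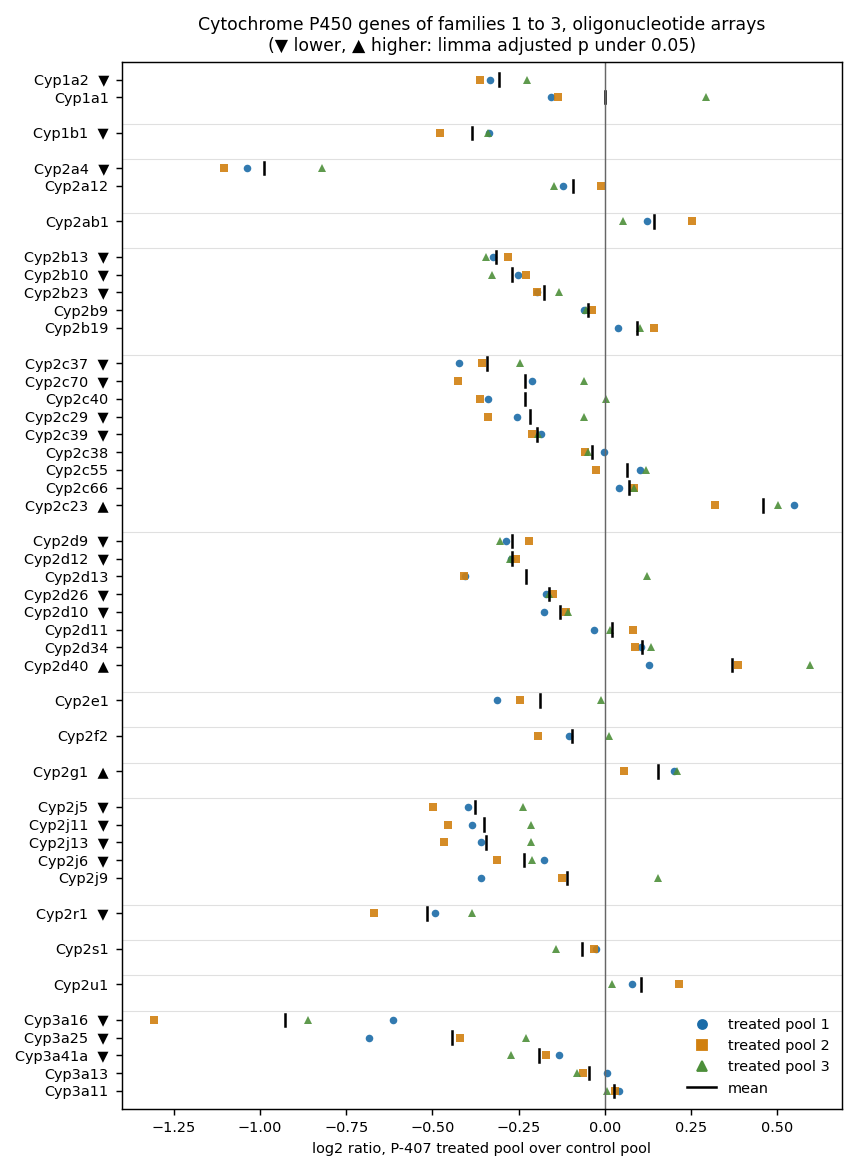
Log2 ratio of treated over control for the 44 P450 genes on the oligonucleotide arrays, grouped by subfamily and sorted by mean. Symbols are the 3 treated pools, black bars their mean, and triangles beside a name mark genes called lower (22) or higher (3) by limma. Cyp2a4 and Cyp3a16 lie farthest to the left at -0.99 and -0.93. With arrays centred on hepatocyte markers, all points would move right by between 0.23 and 0.30.

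On the oligonucleotide arrays the Cyp2a and Cyp3a subfamilies, which hydroxylate steroids and drugs, held both the lowest ratios and members near 0. On the cDNA arrays, described below, Cyp2a12 and Cyp3a11 were not near 0, with means of -0.95 and 0.47, neither called. Cyp2a4, a testosterone hydroxylase of female liver, had ratios of -1.04, -1.11 and -0.82 in pools 1, 2 and 3. All 3 pools were low, and no other member was as low on average. Its mean of -0.99 ± 0.15 (SD, n = 3 pools) was a 1.98-fold decrease with a limma adjusted p of 0.0005, and it ranked as number 44 from the bottom of 16871 genes. The other measured Cyp2a gene, Cyp2a12, also a steroid hydroxylase, had -0.12, -0.01 and -0.15, with a mean of -0.09 ± 0.07 and a limma adjusted p of 0.152. On the same arrays Cyp2a4 lay 0.90 ± 0.21 below Cyp2a12 as a difference of log2 ratios (-0.90), and the ranges of the 2 genes did not overlap. That pair and the other within-array differences below were picked after their values were seen and have no test. Cyp2a5, whose promoter matches that of Cyp2a4 at 245 of 249 aligned bases, had no value on these arrays. Whether the Cyp2a4 feature also read Cyp2a5 RNA was not tested.

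Of 5 measured Cyp3a genes 3 fell and 0 rose. This count and those of the other subfamilies below stand against 50% of all 44 members called lower. Among all genes 21.4% were called lower and 22.0% higher, and each subfamily holds few genes. Cyp3a16, a fetal and female form in mouse liver, had -0.61, -1.31 and -0.86. The pools differed among themselves by more than for most members, yet each was lower than every other Cyp3a value on its array except that of Cyp3a25 in pool 1. The mean was -0.93 ± 0.35, a 1.90-fold decrease with a limma adjusted p of 0.0030. Cyp3a25 had -0.68, -0.42 and -0.23 with a mean of -0.44 ± 0.23 and a limma adjusted p of 0.0097. Cyp3a41a, a female form, had -0.13, -0.17 and -0.27 with a mean of -0.19 ± 0.07 and a limma adjusted p of 0.0195. Its call was lost without any 1 pool (limma adjusted p between 0.0605 and 0.0645), and its sign turned to 0.07 when arrays were centred on hepatocyte markers.

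Cyp3a11, the most studied mouse Cyp3a enzyme and the standard readout of PXR, had 0.04, 0.03 and 0.01. All 3 pools were within 0.05 of the array median. The mean was 0.03 ± 0.02, with a 95% interval of -0.07 to 0.12 and a limma adjusted p of 0.627. The mean of Cyp3a16 lies outside this interval, which holds the spread of the treated pools alone. A deviation of the single control pool or of the dyes would enter all 3 ratios alike and is not in it. On the cDNA arrays the 95% interval of Cyp3a11 was 0.06 to 0.87. Cyp3a13, expressed in intestine and liver, had 0.01, -0.06 and -0.08 and a limma adjusted p of 0.408. Within arrays Cyp3a16 lay below Cyp3a11 by a log2 difference of -0.95 ± 0.35 and below Cyp3a41a by -0.74 ± 0.35.

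These 3 Cyp3a genes differ in ratio while their proximal promoters are close in sequence, which is why the 3 promoters are shown. The 250 bases before the start of each gene were read from RefSeq, build GRCm38.p6, all on the minus strand of chromosome 5. Cyp3a16 (chr5:145469724-145469973) matched Cyp3a41a (chr5:145720137-145720386) at 231 of 246 aligned bases (93.9%) and Cyp3a11 (chr5:145879855-145880104) at 200 of 239 (83.7%, with 19 gap bases). Each is printed 5′ to 3′, with capitals marking the letters TGTTTAC, a forkhead element, and CAAAGTCCA, an HNF4 element.
Cyp3a16: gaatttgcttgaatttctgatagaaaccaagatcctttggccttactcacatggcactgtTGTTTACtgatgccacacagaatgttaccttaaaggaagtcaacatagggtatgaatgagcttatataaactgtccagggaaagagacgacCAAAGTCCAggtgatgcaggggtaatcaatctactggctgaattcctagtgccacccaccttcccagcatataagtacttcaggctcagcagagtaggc
Cyp3a41a: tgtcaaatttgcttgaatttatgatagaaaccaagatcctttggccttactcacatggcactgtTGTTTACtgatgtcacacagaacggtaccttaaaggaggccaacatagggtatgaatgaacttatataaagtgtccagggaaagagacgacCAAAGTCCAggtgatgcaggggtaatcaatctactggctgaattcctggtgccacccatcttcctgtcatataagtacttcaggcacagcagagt
Cyp3a11: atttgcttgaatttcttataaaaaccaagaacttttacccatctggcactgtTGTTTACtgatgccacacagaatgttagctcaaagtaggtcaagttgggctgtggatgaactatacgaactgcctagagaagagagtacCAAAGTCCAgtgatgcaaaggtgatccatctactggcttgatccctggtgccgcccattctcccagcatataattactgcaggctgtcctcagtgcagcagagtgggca
All 3 windows hold both elements. The nuclear receptor half-site AGGTCA, searched as well, was found in the Cyp3a11 window and not in those of Cyp3a16 and Cyp3a41a.

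Of the 48 genes 42 had a promoter in the RefSeq table, in 45 windows of 250 bases, and a set of motifs was searched on both strands. CAAAGTCCA was found in 8 of the 42 genes and in 0.384% of all 32851 mouse windows of the table. Its 8 genes were Cyp2c40, Cyp2c65, Cyp2c68, Cyp2c69, Cyp2c70, Cyp3a11, Cyp3a16 and Cyp3a41a, which belong to 2 clusters of related sequence and are not separate observations. TGTTTAC was found in 7 genes (3.17% of all windows), the nuclear receptor half-site AGGTCA in 12 (14%), the dioxin response core GCGTG in 7 (28.2%) and the TATA box letters TATAAA in 20 (12.4%). A match is a description of these windows and not a site shown to be bound.

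The Cyp2b subfamily contains the classical CAR targets that respond to phenobarbital, and 3 of its 5 measured genes fell. Cyp2b13, a female form read by 2 features, had -0.32, -0.28 and -0.34, and Cyp2b10, the usual readout of CAR, had -0.25, -0.23 and -0.33. Their means were -0.32 ± 0.03 (limma adjusted p = 0.0027) and -0.27 ± 0.05 (limma adjusted p = 0.0050). Cyp2b9, the other female form, had -0.06, -0.04 and -0.05, with a mean of -0.05 ± 0.01 and a limma adjusted p of 0.346. On these oligonucleotide arrays the 3 pools of Cyp2b13 and of Cyp2b10 all lay below those of Cyp2b9. The log2 difference of Cyp2b13 from Cyp2b9 was -0.27 ± 0.02 and that of Cyp2b10 from Cyp2b9 was -0.22 ± 0.05. Cyp2b23 had a mean of -0.18 ± 0.04 (limma adjusted p = 0.0178). Without pool 1 its limma adjusted p was 0.112 and without pool 2 it was 0.0722, and its sign turned to 0.09 with arrays centred on hepatocyte markers. With that centring Cyp2b10 lay at 0.00 and Cyp2b13 at -0.05, neither called. On the cDNA arrays the order of Cyp2b10 and Cyp2b9 was the other way in every pool. There Cyp2b9 had -0.43, -0.29 and -0.36 and Cyp2b10 had -0.20, 0.08 and -0.22, neither called.

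Cyp2b13 and Cyp2b9 lie near each other on chromosome 7, with 1 pseudogene listed between them, and have nearly the same promoter. They are shown because their ratios did not overlap on the oligonucleotide arrays. On the cDNA arrays Cyp2b9 had a mean of -0.36, not called, and Cyp2b13 was not measured. Their RefSeq windows (GRCm38.p6, plus strand, chr7:26061245-26061494 for Cyp2b13 and chr7:26173159-26173408 for Cyp2b9) are identical at 248 of 250 bases (99.2%). They are printed 5′ to 3′, with capitals at the 2 bases that differ.
Cyp2b13: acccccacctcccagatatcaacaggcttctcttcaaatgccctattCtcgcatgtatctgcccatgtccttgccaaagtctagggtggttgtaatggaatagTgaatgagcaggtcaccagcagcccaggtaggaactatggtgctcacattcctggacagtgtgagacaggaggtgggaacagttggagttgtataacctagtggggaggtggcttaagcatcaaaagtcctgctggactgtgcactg
Cyp2b9: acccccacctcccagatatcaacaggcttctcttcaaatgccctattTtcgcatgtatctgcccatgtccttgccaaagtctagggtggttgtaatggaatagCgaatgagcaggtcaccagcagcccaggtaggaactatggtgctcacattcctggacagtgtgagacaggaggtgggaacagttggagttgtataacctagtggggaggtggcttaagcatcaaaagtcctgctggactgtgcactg
Both windows hold the half-site AGGTCA and none of the other motifs searched. Probes of close relatives may bind each other's RNA, and how far the 2 ratios are separate measurements was not tested.

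The Cyp2c and Cyp2j enzymes oxidise arachidonic acid and other fatty acids, and the 2 subfamilies differed in how evenly their members moved. Of 9 measured Cyp2c genes 4 fell (44.4%, against 50% of all members) and 1 rose, with a subfamily median of -0.20. Cyp2c37, an arachidonic acid hydroxylase, had -0.42, -0.36 and -0.25 and the lowest mean of the subfamily, -0.34 ± 0.09 (limma adjusted p = 0.0038). Cyp2c23, an arachidonic acid epoxygenase also known as Cyp2c44, had 0.55, 0.32 and 0.50. All 3 of its pools were above those of every other Cyp2c gene. Its mean was 0.46 ± 0.12, a ratio of 1.37 with a limma adjusted p of 0.0024, and it lay 0.69 ± 0.11 above Cyp2c70 on the log2 scale. With arrays centred on hepatocyte markers Cyp2c23 stood at 0.72.

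The other called Cyp2c genes were Cyp2c70, which makes the muricholic acids of mouse bile, at -0.23 ± 0.18, Cyp2c29, an arachidonic acid epoxygenase, at -0.22 ± 0.14, and Cyp2c39, a retinoic acid hydroxylase, at -0.20 ± 0.01. Their limma adjusted p values were 0.0453, 0.0332 and 0.0110. Each was lost without pool 1, at a limma adjusted p of 0.127, 0.142 and 0.0664, and Cyp2c70 and Cyp2c29 also without pool 2, at 0.154 and 0.140. All 3 turned above 0 with hepatocyte-marker centring, at 0.03, 0.05 and 0.07. Cyp2c40, a female form, had -0.34, -0.36 and 0.00, low in 2 pools and at the array median in pool 3 (limma adjusted p = 0.0572). Cyp2c38, Cyp2c55 and Cyp2c66 lay between -0.04 and 0.07 and were not called.

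The Cyp2j genes moved more evenly: 4 of 5 fell, 0 rose, and the subfamily median was -0.35. Cyp2j5, an arachidonic acid epoxygenase of kidney and liver, had -0.40, -0.50 and -0.24. Its relatives Cyp2j11 (-0.39, -0.45 and -0.21) and Cyp2j13 (-0.36, -0.47 and -0.21) followed the same order of pools, lowest in pool 2 and highest in pool 3. Their means were -0.38 ± 0.13, -0.35 ± 0.12 and -0.35 ± 0.13, with limma adjusted p values of 0.0049, 0.0054 and 0.0058. Cyp2j6 had -0.18, -0.31 and -0.21 with a mean of -0.23 ± 0.07 (limma adjusted p = 0.0101), and turned to 0.03 with hepatocyte-marker centring. Cyp2j9, known from brain, had -0.36, -0.13 and 0.16, which covers both signs (limma adjusted p = 0.384). With hepatocyte-marker centring the first 3 lay between -0.11 and -0.08 and were not called. Related Cyp2j sequences may share probes, so these genes are not separate observations.

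Cyp2r1, which hydroxylates vitamin D in the liver, had -0.49, -0.67 and -0.38, with a mean of -0.52 ± 0.14 (1.43-fold lower, limma adjusted p = 0.0022). It is the only member of its subfamily. It remained lower with hepatocyte-marker centring, at -0.25 with a limma adjusted p of 0.0149.

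In family 1, which AHR controls, Cyp1a2 and Cyp1b1 fell and Cyp1a1 did not pass. Cyp1a2, the constitutive hepatic form, had -0.33, -0.36 and -0.22 and a mean of -0.31 ± 0.07 (limma adjusted p = 0.0043). Cyp1b1, found mainly outside hepatocytes, had -0.34, -0.48 and -0.34 and a mean of -0.38 ± 0.08 (limma adjusted p = 0.0025). Cyp1a1, the inducible form, had -0.16, -0.14 and 0.29, which covers both signs, with a mean of 0.00 ± 0.25 and a limma adjusted p of 0.999. With hepatocyte-marker centring Cyp1a2 lay at -0.04 and Cyp1b1 at -0.12, neither called.

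Of 8 measured Cyp2d genes 4 fell (50%, the same share as among all members) and 1 rose. Cyp2d9, a testosterone hydroxylase of male liver, had -0.29, -0.22 and -0.30, and Cyp2d12 had -0.27, -0.26 and -0.28. The pools agreed closely for both genes, whose means were -0.27 ± 0.05 and -0.27 ± 0.01, with limma adjusted p values of 0.0048 and 0.0040. Cyp2d40 had 0.13, 0.39 and 0.59 and was above 0 in every pool, but the 3 pools spread over a range larger than the mean of 0.37 ± 0.23 (limma adjusted p = 0.0184, and 0.0810 without pool 2). On the log2 scale it lay 0.53 ± 0.23 above Cyp2d26.

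Cyp2d26 (-0.16 ± 0.01, limma adjusted p = 0.0204) was read by 2 features whose means were -0.25 and -0.07, and with the less variable feature alone it was not called (limma adjusted p = 0.185). Cyp2d10 (-0.13 ± 0.04, limma adjusted p = 0.0464) was the called member nearest to 0. Both lost their call without any 1 pool, at limma adjusted p values of 0.0537 to 0.120 for Cyp2d26 and 0.0793 to 0.248 for Cyp2d10, and both turned above 0 with hepatocyte-marker centring, at 0.10 and 0.13. Without any centring Cyp2d10 also missed the threshold (limma adjusted p = 0.0555). With hepatocyte-marker centring Cyp2d9 and Cyp2d12 lay at 0.00. Cyp2d13, a transcribed pseudogene, had -0.41, -0.41 and 0.12, with pool 3 on the other side of 0 (limma adjusted p = 0.139). Cyp2d11 and Cyp2d34 were not called.

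Of the single-gene subfamilies, Cyp2e1, which oxidises ethanol and acetaminophen, had -0.31, -0.24 and -0.01. It was lower in 2 pools and near 0 in pool 3, with a mean of -0.19 ± 0.16 and a limma adjusted p of 0.0621. Cyp2f2, which bioactivates naphthalene in lung and liver, had -0.10, -0.19 and 0.01 (limma adjusted p = 0.190). Cyp2g1, an enzyme of the olfactory mucosa, had 0.20, 0.06 and 0.21 and rose by a mean of 0.16 ± 0.09 (limma adjusted p = 0.0450), a call lost without pool 1 (0.214) or pool 3 (0.140). Cyp2ab1 (0.14 ± 0.10), Cyp2u1, a fatty acid hydroxylase (0.10 ± 0.10), and Cyp2s1, known from epithelia (-0.07 ± 0.06), had limma adjusted p values of 0.0688, 0.147 and 0.273.

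Between subfamilies with more than 1 member the medians were -0.54 for Cyp2a, -0.35 for Cyp2j, -0.20 for Cyp2c, -0.19 for Cyp3a, -0.18 for Cyp2b, -0.15 for Cyp1a and -0.15 for Cyp2d. Cyp2a had the lowest median in all 3 pools, but it rests on 2 genes. Of these, 1 (Cyp2a12) is near 0 on these oligonucleotide arrays and at -0.95 on the cDNA arrays. Cyp2j followed it in pools 1 and 2 (-0.36 and -0.45), while in pool 3 Cyp3a (-0.23) lay below Cyp2j (-0.21). The order of the other subfamilies changed between pools, and Cyp3a had the highest median of all in pool 1 (-0.13). The differences between subfamilies were not tested.

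Pool 3 was the mildest for these genes. It gave the highest of the 3 ratios in 22 of 44 members (50%, against 34.7% of all genes), and pool 2 gave the lowest in 20. The sign differed between pools in 8 members. In 5 of them, Cyp1a1, Cyp2c40, Cyp2d13, Cyp2f2 and Cyp2j9, pool 3 alone lay above 0. In Cyp3a13 it was pool 1 that lay alone above 0, and in Cyp2c55 and Cyp2d11 a single pool, pool 2 and pool 1, lay below.

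Along the chromosomes, members that fell on the oligonucleotide arrays stood next to members that did not. With 22 of 44 members called lower, such neighbours would be common in any order. Among all genes 21.4% were called lower and 22.0% higher, and the part of gene position was not tested. In the chromosome 7 cluster Cyp2a4 (-0.99) lies between Cyp2b9 (-0.05, not called) and Cyp2b23 (-0.18, also called lower). Of 12 measured genes on that chromosome 5 fell and 1 rose. In the chromosome 5 cluster Cyp3a11 (0.03) has lower genes as its nearest measured neighbours on either side, Cyp3a41a and Cyp3a25, and of 5 measured genes 3 fell. On chromosome 19 the 9 measured Cyp2c genes end with Cyp2c70 (-0.23) and then Cyp2c23 (0.46). The chromosome 15 Cyp2d cluster had 4 lower and 1 higher of 8, and the chromosome 4 Cyp2j cluster 4 lower of 5. Gene order is that of RefSeq GRCm38.p6.

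**Figure D2:**
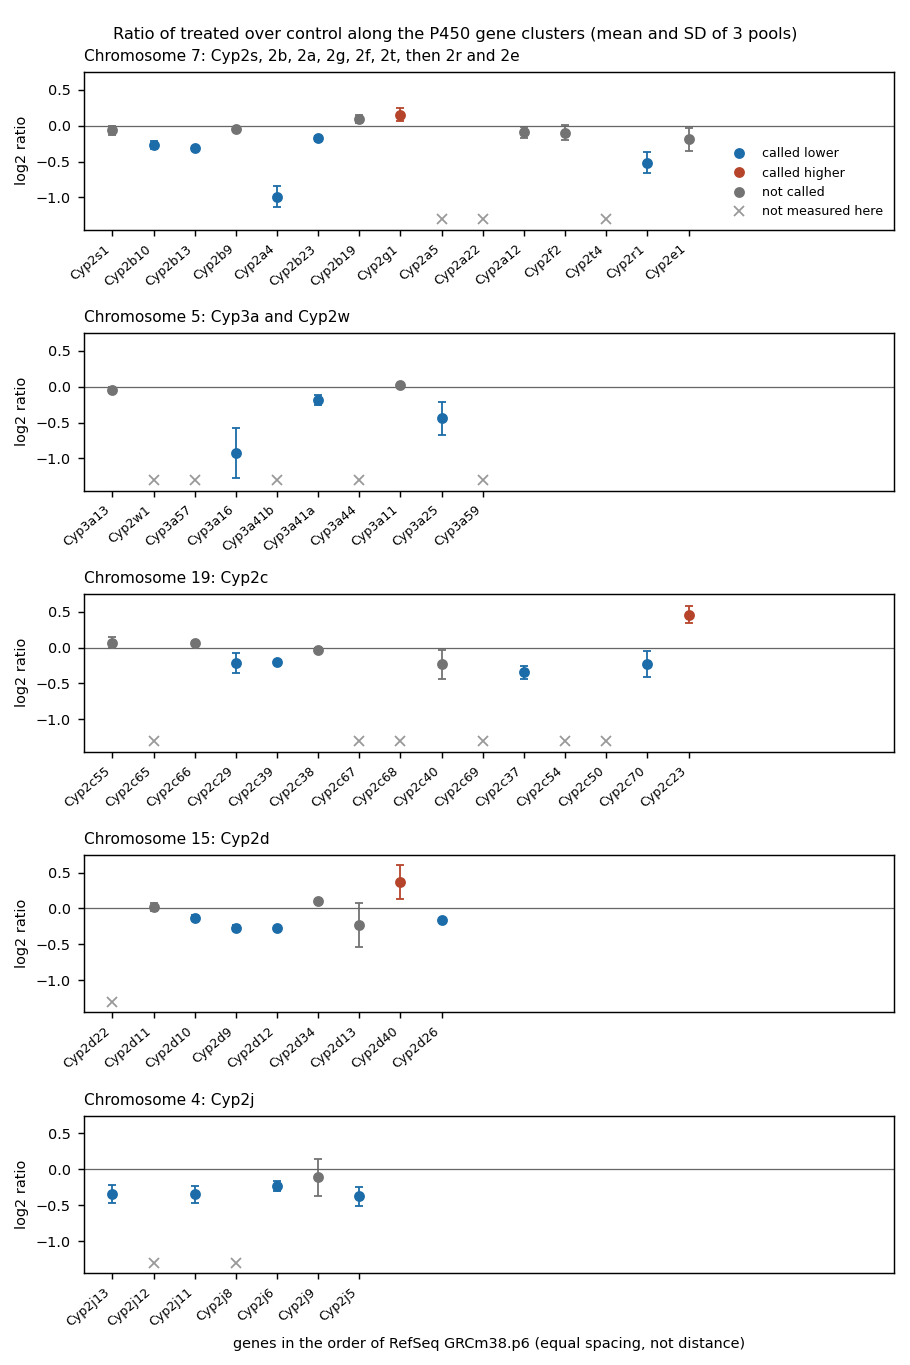
Mean log2 ratio of treated over control on the oligonucleotide arrays, with the SD of 3 pools, for P450 genes in RefSeq order on 5 chromosomes. Genes are spaced evenly and not by distance, and crosses at the foot of a panel mark genes with no value here. Lower genes (blue) stand beside genes that were not called (grey) in each cluster. With hepatocyte-marker centring every point would lie higher by the same amount, for example Cyp2c23 at 0.72 in place of 0.46.

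The same RNA pools on cDNA arrays gave no call. Of 5011 genes tested limma called 0 (0%), neither higher nor lower, with or without the size of 1.5-fold, so 0 of 14 members were called. At an unadjusted p under 0.05 there were 1518 genes and 6 of the 14 members, and testing each gene with its own variance alone called 1 gene and no member. The median SD over pools was 0.32 for all genes and 0.16 for the members, against 0.08 on the oligonucleotide arrays. Of the 14 members 9 lay below 0 and 5 above, with a median of -0.09 against 0.06 over all genes.

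Of the 14 tested genes Cyp2a12 had the lowest mean on the cDNA arrays, with -1.14, -0.72 and -0.98 and a mean of -0.95 ± 0.21 (limma adjusted p = 0.0986). All 3 pools were well below 0. A pair of features annotated to more than 1 Cyp2a gene read -1.60, -1.37 and -1.31, and -1.08, -0.99 and -0.94, also below 0 in every pool. Cyp2d9 had -1.06, -0.51 and -0.48 with a mean of -0.68 ± 0.33 (limma adjusted p = 0.127), and a feature of 3 Cyp2d genes read -0.71, -0.55 and -0.54. Cyp2f2 had -0.68, -0.60 and -0.38, and Cyp3a59, measured on this array type alone, had -0.57, -0.40 and -0.41. These 4 genes had 1 sign in all pools without passing the adjusted test (0.117 for Cyp2f2 and 0.128 for Cyp3a59 by limma).

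Cyp2b9 was also below 0 in every pool, at -0.43, -0.29 and -0.36 (limma adjusted p = 0.158). Cyp3a11 was the highest, with 0.41, 0.67 and 0.32 and a mean of 0.47 ± 0.18 (limma adjusted p = 0.140). Cyp2c65 spread from -1.94 in pool 1 and -0.82 in pool 2 to 0.10 in pool 3, with an SD of 1.02, and gives no direction. Cyp1a2, Cyp2b10, Cyp2c68, Cyp2c69, Cyp2e1, Cyp2j6 and Cyp3a13 had means between -0.11 and 0.19. A pair of features of several Cyp2c genes had means of -0.26 and -0.11. Cyp1b1 (-1.16), Cyp2b19 (0.58) and Cyp2j9 (-0.54) had a value in pool 3 alone, and Cyp2s1 in pool 1 (1.42) and pool 3 (0.93), and none of them was tested.

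**Figure D3:**
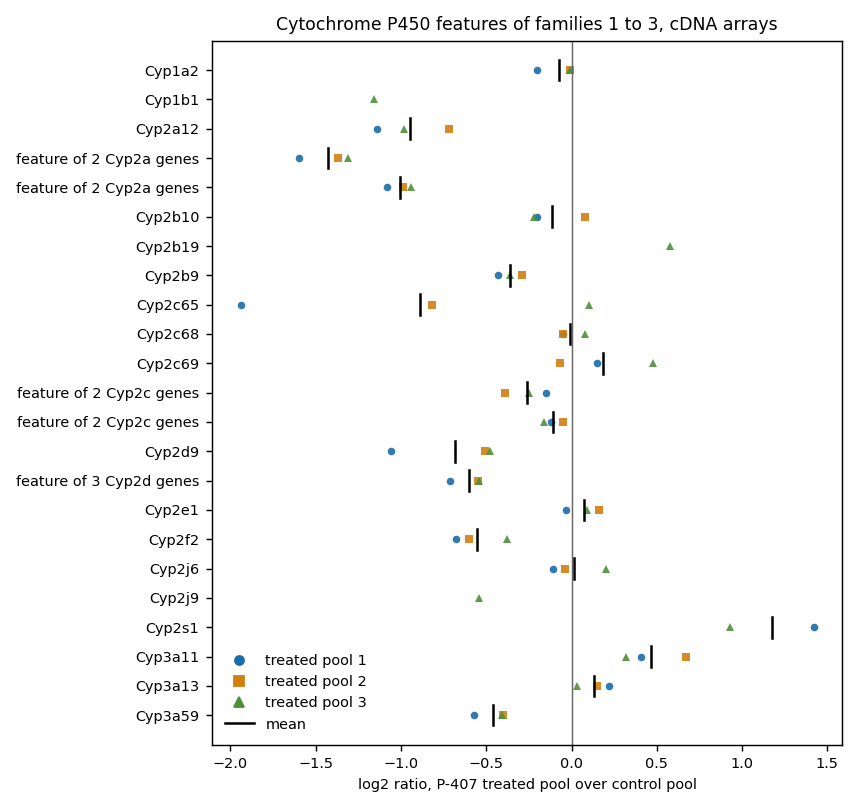
Log2 ratio of treated over control for the 23 P450 features of the cDNA arrays. Symbols are treated pools and black bars are means where more than 1 pool had a value. The Cyp2a features lie between -1.60 and -0.72 and Cyp3a11 between 0.32 and 0.67, and no gene passed the adjusted test.

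For the 10 genes on both array types, the difference between the types was tested with limma over the 6 arrays, a fit that called 11.4% of 4702 genes. Ratios were wider on the cDNA arrays, with a median absolute ratio over all genes of 0.40, against 0.13 on the oligonucleotide arrays. The differences were not corrected for this. Cyp2a12 was the only member called: its ratio was -0.09 on the oligonucleotide arrays and -0.95 on the cDNA arrays, a difference of 0.85 (95% interval 0.50 to 1.20, limma adjusted p = 0.0280). With the pool as a block its limma adjusted p was 0.128, and that fit called 0 genes of all tested (1317 genes and 3 members at an unadjusted p under 0.05). Cyp2f2 (0.46), Cyp3a11 (-0.44) and Cyp2b9 (0.31) followed, with limma adjusted p values of 0.0737, 0.0783 and 0.0917. The 95% interval of the difference was 0.14 to 0.78 for Cyp2f2, -0.76 to -0.13 for Cyp3a11 and 0.07 to 0.55 for Cyp2b9. The oligonucleotide value of Cyp2a12 lies close to 0 while its cDNA value lies close to those of the cDNA features of several Cyp2a genes, and whether the cDNA probe read other Cyp2a RNA was not tested.

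When the 2 arrays of each pool were averaged, 5.10% of 4702 genes were called and 0 of the 10 members, of which 5 had an unadjusted p under 0.05, as did 1707 of all genes. On the oligonucleotide arrays alone 4 of these 10 had been called lower, namely Cyp1a2, Cyp2b10, Cyp2d9 and Cyp2j6. The largest decreases of the oligonucleotide arrays, Cyp2a4 and Cyp3a16, have no single-gene value on the cDNA arrays.

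**Figure D4:**
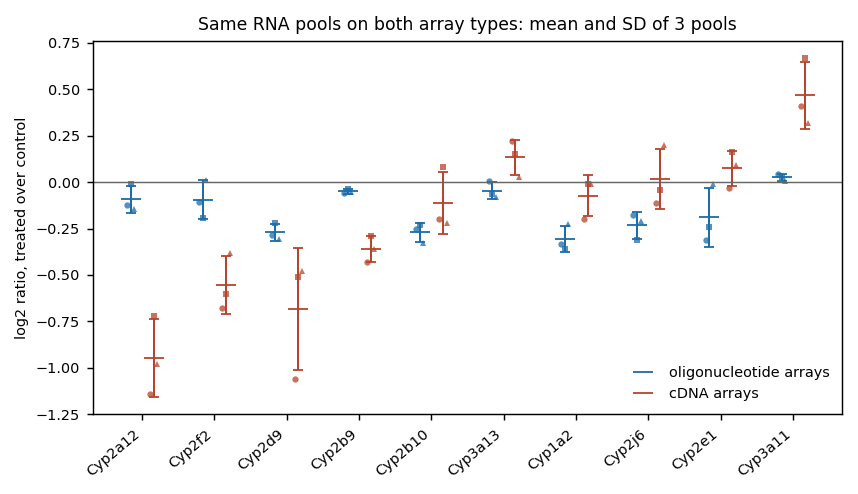
Mean and SD of the log2 ratio over 3 pools for the 10 genes read on both array types, with the pools as points. Cyp2a12 differs most (-0.09 on oligonucleotide arrays, -0.95 on cDNA arrays), and Cyp3a11 lies near 0 on the first and at 0.47 on the second.

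Genes that serve or regulate the P450 system were described on the oligonucleotide arrays from lists of known function. Among all genes there 21.4% were called lower and 22.0% higher, and a list near these shares shows nothing of its own by its count. Of 5 measured electron donors 3 fell and 0 rose, with a median of -0.18. Cyb5r3, which reduces cytochrome b5, had -0.29, -0.43 and -0.21 (mean -0.31 ± 0.11, limma adjusted p = 0.0067), and Cyb5b and Pgrmc2 lay at -0.31 and -0.18. Por, the main donor, was not analysed here. Of 11 genes of haem supply and breakdown 3 fell (27.3%) and 3 rose, near the shares of all genes. Alas1, the rate-limiting enzyme of haem synthesis, had ratios between -1.10 in pool 1 and -0.94 in pool 3, a decrease about as large as that of Cyp2a4 (mean -1.01 ± 0.08, limma adjusted p = 0.0002). Hmox1, which degrades haem, had 0.73, 0.58 and 0.51 (mean 0.61 ± 0.11, limma adjusted p = 0.0010). Alad and Fech, also of synthesis, fell (-0.24 and -0.16), and Hmox2 and Blvra, of breakdown, rose (0.27 and 0.22). The other measured genes of synthesis, Cpox (0.10), Uros (0.07), Urod (0.02) and Ppox (-0.02), were not called, nor was Blvrb of breakdown (0.07).

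Of 29 measured transcription regulators 10 fell (34.5%, against 21.4% of all genes) and 6 rose (against 22.0% of all genes), with a median of 0.01. Dbp, a circadian factor that acts on Cyp2a genes, had -2.88, -2.82 and -2.20 and the lowest mean of all genes on the array (-2.63 ± 0.37, limma adjusted p = 0.0003). Nr1i2, which encodes PXR, had -0.61, -0.38 and -0.63 (mean -0.54 ± 0.14), and Nr1i3, which encodes CAR, had -0.53, -0.51 and -0.30 (mean -0.45 ± 0.13). Their limma adjusted p values were 0.0018 and 0.0028. Cebpb and Cebpa, which bind many P450 promoters, fell, with means of -0.93 ± 0.20 and -0.33 ± 0.02. Ahr rose, with a mean of 0.18 ± 0.08 (limma adjusted p = 0.0257), while Hnf4a (-0.06) was not called. On the cDNA arrays 18 regulators were measured, 10 below 0 and 8 above, and 0 were called. There Nr1i2 had -0.22, 1.01 and -0.59 (mean 0.07), so its decrease was not seen. Dbp had -1.16, 0.00 and -2.47 there, and Cebpa had a mean of -0.49. Of 21 other known targets of CAR, PXR and AHR 10 fell (47.6%) and 3 rose, with a median of -0.28. Alas1, which is on this list too, Gadd45b (0.85 ± 0.24), Sult1d1 (-0.51 ± 0.13) and Gsta1 (-0.37 ± 0.07) had the smallest p values. On the cDNA arrays 12 of these targets were measured, 8 below 0 and 4 above, with 0 called, and Sult1d1 had a mean of 0.05.

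P450 genes of families 4 and above, which make bile acids, sterols and steroid hormones or oxidise fatty acids, had 7 lower and 1 higher of 27, with a median of -0.08. The share called lower was 25.9%, near the 21.4% of all genes, while 22.0% of all genes were called higher. Cyp39a1 (-1.17 ± 0.13) and Cyp51 (-1.16 ± 0.17) lay below the lowest gene of families 1 to 3, and Cyp27a1 (-0.46) also fell while Cyp7b1 (0.35) rose. Among the members, the 7 measured genes known as female-biased all lay below 0, with 5 called lower (71.4%) and a median of -0.23. For comparison, 32 of all 44 members lay below 0 and 50% were called lower. The 5 known as male-biased had 1 lower (20%) and 1 higher, with a median of 0.02. The female-biased pattern depends on the zero point. With arrays centred on hepatocyte markers, Cyp2a4 (-0.72) and Cyp3a16 (-0.66) remained lower and Cyp2b13 (-0.05) was not called. Cyp2c39 and Cyp3a41a then both turned to 0.07, not called. On the cDNA arrays, with 2 genes measured of each list and none called, the medians were -0.09 for the female-biased and -0.62 for the male-biased genes, the other order. All mice were female, the lists hold few genes, some of them close relatives, and their difference was not tested.

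The cell type lists stood as follows on the oligonucleotide arrays, where 21.4% of all genes were called lower and 22.0% higher. Hepatocyte markers had 11 lower and 0 higher of 20 measured, with a median of -0.28, below the P450 members' median of -0.18, and list means between -0.35 and -0.31 in the 3 pools. The marker genes Alb, Ahsg and Fgb carried the same ratio on each array to 3 decimals (mean -0.28 ± 0.26), so they are 1 value rather than 3. Periportal genes had 8 lower and 1 higher of 13 (median -0.30), and pericentral genes, the zone where many P450 enzymes are found, had 7 lower and 5 higher of 18 (median 0.03). Macrophage and Kupffer cell markers had 13 higher and 4 lower of 18 (median 1.01), stellate cell and fibroblast markers 9 higher and 0 lower of 10 (0.53), neutrophil markers 8 higher and 0 lower of 10 (0.44) and lymphocyte markers 8 higher and 0 lower of 13 (0.25). Endothelial markers had 3 lower and 0 higher of 10 (-0.03), and bile duct markers 1 higher and 0 lower of 5 (0.06). P450 genes listed as mainly outside the liver had 2 lower (25%, near the share of all genes) and 1 higher of 8 (-0.08). That list also holds Cyp2f2, which acts in liver as well. On the cDNA arrays no list had a called gene, and the medians of the hepatocyte and macrophage lists were -0.26 and 1.27. The lymphocyte list had 6 of 8 genes below 0 there, opposite to its direction on the oligonucleotide arrays. The part of these cell types in the P450 ratios was not tested.

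**Figure D5:**
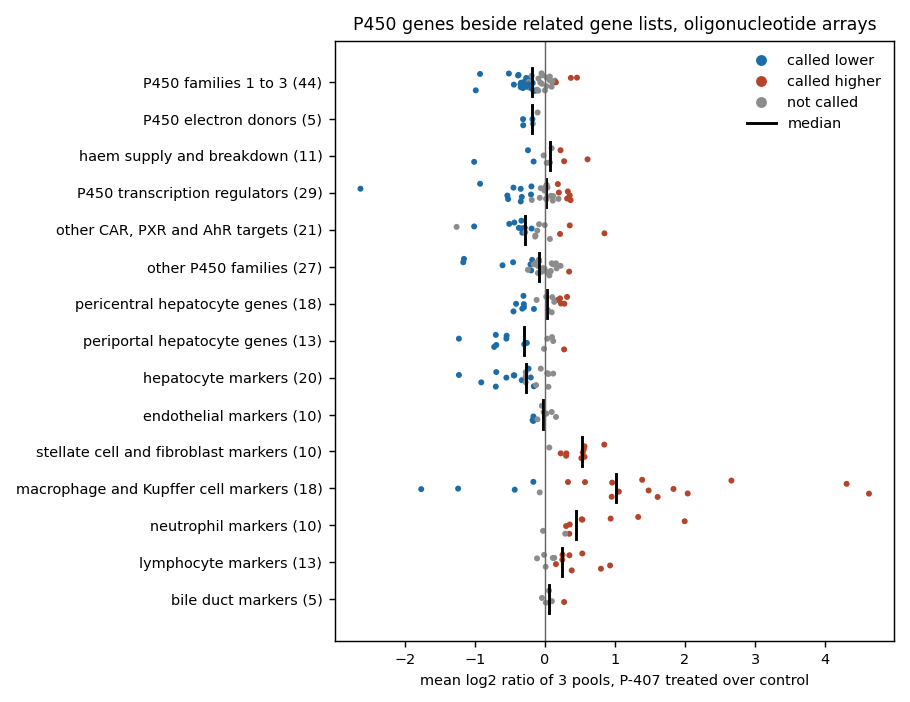
Mean log2 ratio over 3 pools for each gene (point) of the P450 families 1 to 3 and of 14 related lists on the oligonucleotide arrays, with the number of genes in brackets and the median as a black bar. The P450 genes (median -0.18) and the hepatocyte markers (-0.28) lie left of 0, and the macrophage markers (1.01) lie to the right.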

How the data were processed

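Liver RNA was measured on 2-colour Agilent arrays, 3 oligonucleotide and 3 cDNA. The authors deposited a log ratio for every feature of an array, and these were read here as log2 ratios. How they were made is not given in the sources used. Per the labels, 0.5 ug of RNA was amplified and labelled for the oligonucleotide array and 10 ug was labelled directly for the cDNA array. Features were named from the platform annotation: 18658 oligonucleotide and 7410 cDNA features named 1 gene, 30 and 438 named several, and 3887 and 5634 named none. The gene IDs of 18445 and 7332 were found in RefSeq (GRCm38.p6).

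Exact 0 was treated as missing, each array was centred on its median, and features of a gene were averaged. Each array type was tested by itself in limma 3.58.1 (R 4.3.3) as the mean log2 ratio against 0, with Benjamini-Hochberg adjustment over all genes tested, and genes under 0.05 were called. Controls are represented by a single pool, so the spread between control animals is left out, and dye and treatment cannot be told apart. Per the series' design text every RNA was divided between the array types, and arrays with the same sample number were taken as the same pool. The deviations of same-numbered arrays correlated at 0.06, 0.07 and 0.07 over 4702 genes. Promoters were compared with Biopython 1.88, and tables and plots were made with Python 3.11.15, pandas 2.3.3 and matplotlib 3.10.9.

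The members and gene lists were chosen with earlier results of these data known. Genes named with values were the 14 called members of the largest absolute mean with 1 sign. The member of the smallest p in each subfamily and the members on both array types were named too. From the lists of haem supply and breakdown, regulators, receptor targets and other P450 families, the 4 genes of the smallest p were named. Of the electron donors those called were named, and the remaining lists are described mainly by counts and medians. Other genes were named after their values were seen. A test of pairs of members chosen by protein identity was not run, since no protein sequences were used here.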

Additional observations from a re-analysis of the deposited data

Results flagged for a closer look

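The log2 ratio of Cyp2a12 differed between array types by 0.85 in a direct test of the difference (oligonucleotide mean -0.09, cDNA mean -0.95, limma adjusted p = 0.0280). The difference was positive in each of the 3 pools, and it was not corrected for the wider ratios of the cDNA arrays. Cyp2a12 was the only one of 10 members called, where 11.4% of 4702 genes were called. It was not called with the pool as a block (limma adjusted p = 0.128) or with any 1 pool left out. The block, and the fits without pool 1 or pool 2, called 0 of all genes, while the fit without pool 3 called 1062.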

How the results depend on the processing

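With any 1 pool left out, 15 to 23 members were called lower (main 22) and 2 higher each time (main 3). Among all genes 2029 to 3064 were then lower (main 3608) and 1996 to 3180 higher (main 3710). Of the 25 called members 16 remained called whichever pool was left out. No centring, 0 kept as a value, features of several genes, and 1 feature a gene left 21 or 22 lower and 3 higher. Among all genes these settings gave 3439 to 3705 lower and 3707 to 3892 higher. Testing each gene with its own variance alone called 0 lower and 0 higher, and 0 lower at 1.5-fold (main 2). It called 16 and 24 of all genes, and 2 of all genes lower at 1.5-fold. With arrays centred on hepatocyte markers, 3 were lower and 19 higher, against 627 and 12500 of all genes. At 1.5-fold 2 were then higher (main 0), against 1319 of all genes (main 358). The reversed values were Cyp2b23 0.090, Cyp2c29 0.048, Cyp2c39 0.070, Cyp2c70 0.033, Cyp2d10 0.13, Cyp2d26 0.10, Cyp2j6 0.032 and Cyp3a41a 0.074, which follow from the shifted zero point. Averaging both arrays of a pool left 0 of the 10 shared members called lower (4 on oligonucleotide arrays alone). With the pool as a replicate block 0 members differed between array types (main 1), and likewise 0 with any 1 pool left out. Among all genes the block called 0 (main 537), and leaving out pool 1, 2 or 3 called 0, 0 and 1062. The cause was not tested. The cDNA arrays gave 0 called members under every alternative run, against at most 1 of all genes. Leaving out pools for the pairs of similar members, and keeping 0 for them, were not run. Signal over background is unknown, which limits what small ratios can show.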
